A study of Mus musculus with 249 samples.

Results

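Of the 60391 autosomal windows of 40 kb that start at 3 Mb or beyond, 752 were positive in none of the genome architecture mapping (GAM) libraries of this collection and 609 were positive in 1 to 24 of them. These 1361 windows, 54.4 Mb in all, are the rarely or never detected part of the mouse autosomes here. They were chosen by the number of positive libraries alone, so the counts that define them are given as a description and without a test. The never positive windows made up 1.25% of the autosomal windows, the windows of 1 to 24 libraries 1.01%, and both together 2.25%. The remaining 59030 windows were positive in 25 or more libraries.

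GAM takes thin cryosections through frozen cells, picks slices of nuclei (nuclear profiles) with a laser, and amplifies and sequences the DNA of each tube. How often 2 windows are called in the same tubes serves as the measure of their contact. A window that is hardly ever called therefore gives no contact information. A window can be called only from reads that the aligner places in it, so gaps in the assembly and sequence present in several near-identical copies are known blind spots of short-read assays. Mammalian genomes hold many such copies in tandem arrays, among them pheromone receptor, chemokine, defensin and T cell receptor genes.

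The libraries all came from 46C cells, a mouse embryonic stem (ES) cell line of strain 129/Ola with a Sox1-GFP knock-in, derived from E14tg2a. The sections were 220 nm thick, and the titles give 4 profiles dissected per tube, while the series' description puts the nuclear profiles per library at 3 on average. Nothing but this line, which is a single line, was sampled, and since genomic DNA was measured no ES cell marker could be checked. The titles place the libraries in 11 experiments. The reagent volume experiment held protocol-a (n = 10), protocol-b (n = 11) and protocol-c (n = 10), which differ in the volumes used in whole genome amplification. The proteinase K titration held groups titled 1 ul (n = 5) and 2 ul (n = 6), for which the protocol text gives smaller volumes per well in the same ratio, and the PCR cycle test held 20 (n = 4), 23 (n = 5) and 25 cycles (n = 3). Libraries frozen after incubation were compared with unfrozen ones (n = 10 and n = 11), and early with late freezing (n = 12 and n = 11). Cresyl violet was compared with unstained sections (n = 16 and n = 10), and a large with a small amplification kit (n = 11 and n = 12). The eosin (n = 18), propidium iodide (n = 20) and SYBR Gold (n = 10) experiments are present with libraries titled unstained, and a full collection, stained with cresyl violet by its protocol text, held 54. For the SYBR Gold experiment the protocol text describes staining with that dye, so whether its libraries were stained is uncertain. The labels do not say that libraries of a group came from separate cultures, so p-values below measure the spread between libraries, which may be technical.

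Reference sequences from these windows, all from mm9 on the plus strand, are shown for 3 kinds of member. Of the 1361 members, 408 are all N and hold no sequence. The first set was taken from runs of adjacent member windows in which multi-copy sequence could be read. Each is 100 bases, and the capitals mark a 50-base stretch whose exact copies in the genome were counted. The run of 38 windows on chromosome 2 holds a stretch with 13 exact copies, the other 12 of them in the same run, in a window positive in 0 libraries (chr2:175676476-175676575). The run of 39 windows on chromosome 5 holds a stretch with 5 copies, all in that run, in a window positive in 18 libraries (chr5:94891176-94891275). The runs of 30 windows on chromosome 7 (chr7:32880676-32880775) and of 17 windows on chromosome 5 (chr5:11361676-11361775) each hold a stretch with 6 copies, all within the run, in windows positive in 22 and 20 libraries. These examples were picked, after the data had been seen, because no copy lies outside its run, which does not hold for all sequence there. Of the 50-base stretches with 2 to 100 copies in the runs of 38, 39, 30 and 17 windows, 27.8%, 6.29%, 54.3% and 46.7% had all their copies in member windows.
Run of 38 windows, chromosome 2: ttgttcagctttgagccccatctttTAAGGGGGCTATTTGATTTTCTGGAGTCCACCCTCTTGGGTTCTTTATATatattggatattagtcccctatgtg
Run of 39 windows, chromosome 5: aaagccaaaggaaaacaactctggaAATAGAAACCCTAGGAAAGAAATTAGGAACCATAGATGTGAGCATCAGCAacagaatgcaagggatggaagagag
Run of 30 windows, chromosome 7: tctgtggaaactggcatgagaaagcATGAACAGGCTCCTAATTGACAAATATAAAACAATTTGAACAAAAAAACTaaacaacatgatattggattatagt
Run of 17 windows, chromosome 5: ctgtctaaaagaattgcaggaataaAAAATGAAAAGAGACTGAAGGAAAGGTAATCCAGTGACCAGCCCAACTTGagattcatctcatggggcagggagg

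The second set comes from the edges of the longest runs, which are assembly gaps and hold few bases. The most copied stretch at the edge of the run of 175 windows on chromosome 7 (chr7:46356476-46356575) had 179 exact copies in the genome. Those at the edges of the runs of 50 windows (chr8:22039476-22039575) and 42 windows (chr8:57915176-57915275) on chromosome 8 had 3 copies each, and the run of 49 windows on chromosome 1 holds no base at all.
Run of 175 windows, chromosome 7: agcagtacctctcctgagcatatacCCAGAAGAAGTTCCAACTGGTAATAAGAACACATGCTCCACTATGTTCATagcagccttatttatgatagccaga
Run of 50 windows, chromosome 8: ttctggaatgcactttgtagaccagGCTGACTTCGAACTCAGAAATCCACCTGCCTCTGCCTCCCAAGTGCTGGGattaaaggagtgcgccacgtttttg
Run of 42 windows, chromosome 8: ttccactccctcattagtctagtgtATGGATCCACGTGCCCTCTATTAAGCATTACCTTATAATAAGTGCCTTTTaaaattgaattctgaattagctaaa

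The last set shows the opposite case, windows that were never positive although most of their sequence is found once in the reference. Both lie in Skint4, a gene of the Skint family of immunoglobulin-like membrane proteins, whose founding member Skint1 is needed for the development of T cells of the skin, at chr4:111760001-111760200 and chr4:111800001-111800200. Of the 50-base stretches sampled every 100 bases in these windows of 40 kb, 83.5% and 93.0% had no second copy.
First Skint4 window, 200 bases from its start: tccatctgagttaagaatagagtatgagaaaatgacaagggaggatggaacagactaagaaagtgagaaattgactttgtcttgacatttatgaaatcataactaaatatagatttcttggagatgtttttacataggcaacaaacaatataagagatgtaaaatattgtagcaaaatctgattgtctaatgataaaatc
Second Skint4 window, 200 bases from its start: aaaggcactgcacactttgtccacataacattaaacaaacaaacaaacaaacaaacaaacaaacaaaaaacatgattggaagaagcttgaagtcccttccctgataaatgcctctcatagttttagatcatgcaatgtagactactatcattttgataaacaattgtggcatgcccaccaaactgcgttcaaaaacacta

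The counts of positive libraries per autosomal window fell into a broad peak around a median of 50 and a separate spike at 0. Between these, the counts from 1 to 24 were sparsely filled, with 55 windows at 1 library, 39 at 2 and 15 to 35 at each count from 3 to 24. The limit lies at the foot of the broad peak, where 29 windows were positive in 24 libraries and 50 windows in 25. The classes therefore differ in how sharply they stand apart. For a window positive in no library, the count of 0 allows a share of up to 1.20% of libraries, counting error only.

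**Figure D1:**
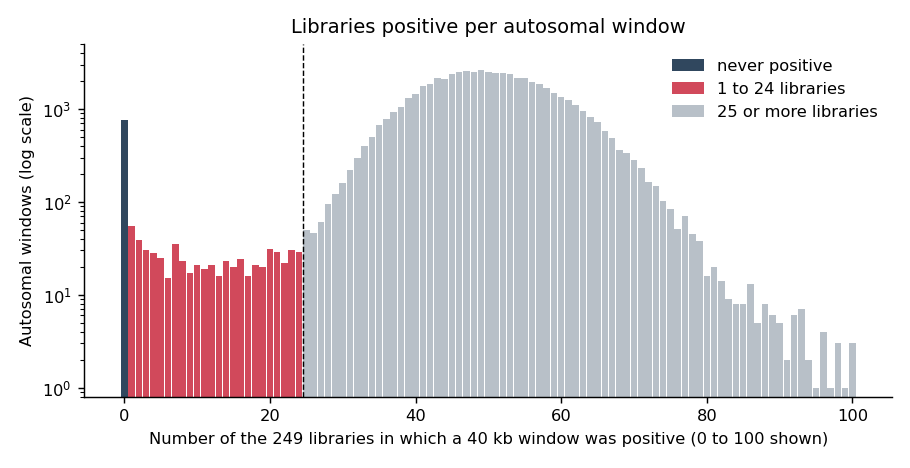
Number of autosomal windows of 40 kb (vertical, log scale) by how many libraries called the window positive (horizontal, shown to 100). The 752 never positive windows form a spike, the 609 windows of 1 to 24 libraries a low plateau, and the dashed line marks the limit between 24 and 25.

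Gaps in the assembly accounted for much of the never positive class and for little of the other. The reference consisted of N, bases that the assembly leaves unknown, throughout 408 windows, and every one of them was never positive. With windows of partial N added, 469 of the 752 never positive windows, 63 of the 609 windows of 1 to 24 libraries and 113 of the 59030 other windows held 10% N or more. The 117 windows with 10 to 50% N were positive in a median of 36 libraries, and 24 of them were never positive and 14 positive in 1 to 24. The 96 windows with 50 to 90% N were positive in a median of 18.5 libraries, and the 24 with 90% N or more, but some bases, in a median of 3. Among windows with under 10% N, 283 were never positive and 546 were positive in 1 to 24 libraries. GC content was similar, at 41.6 ± 3.1% (SD over 283 windows), 41.2 ± 3.2% (546) and 41.9 ± 4.1% (58917) in the never positive, the 1 to 24 and the other windows.

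The windows that do hold sequence hold mostly sequence present more than once. Of the sampled 50-base stretches (50-mers), the share found once in the genome had a median of 0% in never positive windows with under 10% N, 11.5% in those of 1 to 24 libraries and 95.0% in all others. No 50-mer was unique in 166 of the 283 never positive windows, and the median copy number of a 50-mer was 7 in that class, 4 in the windows of 1 to 24 libraries and 1 elsewhere. Over all windows with at least 1 sampled 50-mer, gaps included, the medians were 0% (344 windows), 12.2% (609) and 95.0% (59030).

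Read the other way, the share of windows in the rarely or never detected classes was above 90% in both bins with the least unique content and fell in each bin from there. It was 91.6% of the 191 windows with no unique 50-mer, 95.0% of the 238 with up to 5%, 54% of the 409 with 5 to 20%, 16.3% of the 417 with 20 to 40% and 4.19% of the 812 with 40 to 60%. It was 0.0491% of the 40757 windows with 90% or more, against 2.25% of all autosomal windows. Never positive windows made up most of the first of these bins and were rare from 5% upwards. Low unique content did not always go with low detection. Of 838 windows under 20%, 216 were positive in 25 or more libraries and 105 in 40 or more, and the first listed window of chromosome 9 (chr9:3000001-3040000) was positive in 247 libraries, all but 2, with 16.8% unique 50-mers.

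**Figure D2:**
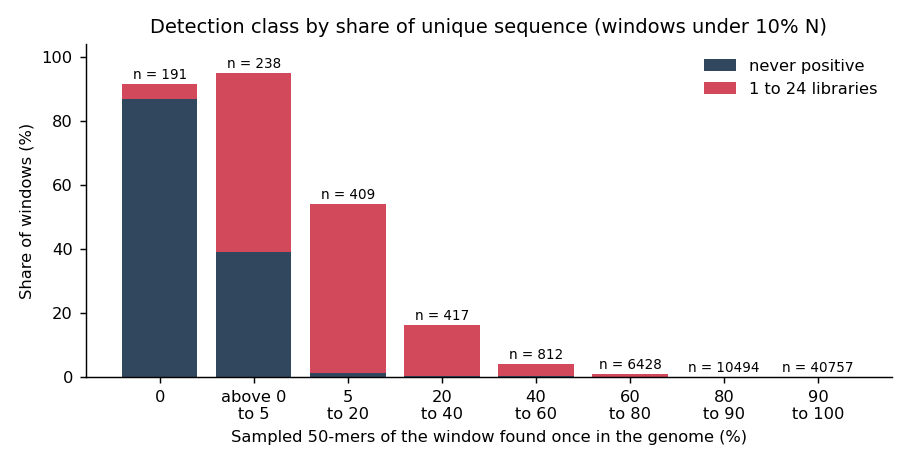
Share of windows (vertical, %) that were never positive or positive in 1 to 24 libraries, by the percent of sampled 50-mers found once in the genome (horizontal), for windows with under 10% N. The share is above 90% in both bins up to 5% unique and below 1% in the bins from 60% on.

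Most multi-copy 50-mers had at least 1 other copy close by. Of the 50-mers with 2 to 100 copies in never positive windows (98968, windows with under 10% N), 97.8% had another exact copy within 2 Mb on the same chromosome and 73.9% had one within the same run of member windows. The values were 91.6% and 51.6% in windows of 1 to 24 libraries (147673 50-mers). In the 216 windows of 25 or more libraries under 20% unique, 80.4% of 69143 such 50-mers had a copy within 2 Mb. The classes lay closer together in the share of 50-mers with all copies within 2 Mb, at 50.0%, 53.4% and 46.9%, and 62.8%, 52.9% and 50.7% of all the copies lay within 2 Mb. At least 1 further copy lay in a rarely or never detected window for 98.3%, 86.5% and 47.8% of the 50-mers in these classes, and all copies did for 43.1%, 31.7% and 10.1%. These are properties of the reference, which is from strain C57BL/6J, while the cells are of strain 129/Ola. The share of all sampled 50-mers found more than 100 times was 6.98% in the never positive windows and 8.38% in those of 1 to 24 libraries. It was 7.94% in the windows of 25 or more libraries under 20% unique.

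Many members lay side by side along chromosomes. They formed 274 runs of adjacent windows, of which 148 were single windows, 60 had 2 to 4, 38 had 5 to 9 and 28 had 10 or more. These last 28 held 813 windows, or 59.7% of all, and the share was 33.5% with windows under 10% N only, a filter that takes out gap runs and also parts runs that hold some N. Taken alone, the windows of 1 to 24 libraries formed 303 runs, 200 of them single windows, with 9.20% of the windows in runs of 10 or more. In 60 runs both classes occurred side by side, and these mixed runs held 700 windows. A further 28 runs held never positive windows alone and 186 held windows of 1 to 24 libraries alone. The next window outside a run is by definition positive in more than 24 libraries, so a rise at the edge follows from the rule. Among non-member windows, which all lie above 24, detection was lower next to a member than further away. Non-member windows next to a member were positive in a median of 40 libraries, those at a distance of 2 windows in 48, and those more than 10 windows away in 50. The median unique share rose over the same steps from 59.9% to 83.8% and 95.0%.

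Chromosomes carried very unequal numbers. Chromosome 7 held 414 members (11.1% of its windows), of which 283 were never positive, followed by chromosome 14 with 163, chromosome 4 with 126, chromosome 12 with 120, and chromosomes 5 and 8 with 117 each. Together these 6 held 77.7% of the members against 34% of the autosomal windows. Without windows of 10% N or more the same 6 held 79.5%, but chromosome 8 then held 19 members, fewer than the 53 of chromosome 2. Chromosome 15 held 2 members, chromosome 9 held 6 and chromosome 11 held 10. Of the 19 last, incomplete windows of the chromosomes 4 were members.

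**Figure D3:**
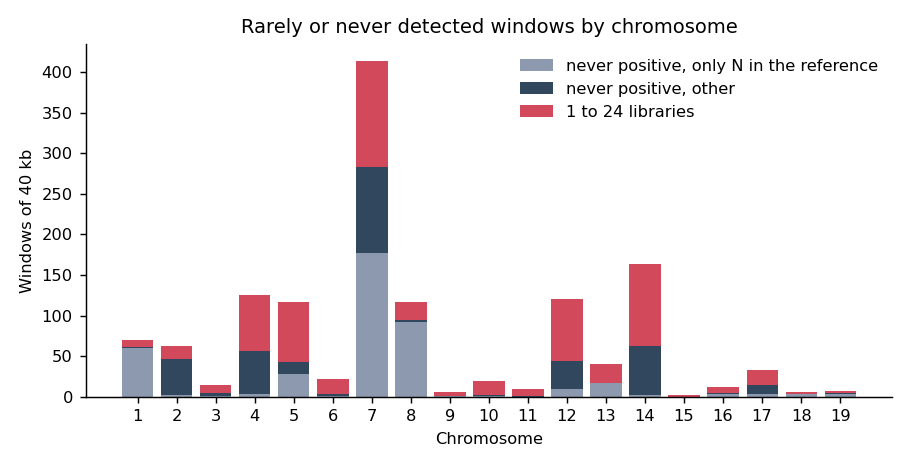
Number of rarely or never detected windows (vertical) on each autosome (horizontal), split into never positive windows that are all N, other never positive windows and windows of 1 to 24 libraries. Chromosome 7 stands highest with 414, and the bars of chromosomes 1 and 8 consist mostly of all-N windows.

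The longest runs were gaps. The run of 175 windows on chromosome 7 (chr7:39360001-46360000) was never positive throughout and 99.9% N, and its flanking windows were positive in 53 and 51 libraries. Gaps likewise filled runs of 50 and 42 windows on chromosome 8 (chr8:20040001-22040000, chr8:56240001-57920000) and of 49 windows on chromosome 1 (chr1:85360001-87320000). No protein-coding gene is annotated in these 4 runs.

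The next runs held multi-copy sequence, most of them with clusters of predicted genes. On chromosome 5 (chr5:94640001-96200000), 39 windows without any N held 8 never positive windows and 31 positive in 1 to 23 libraries, with a median of 3. The run covers 22 protein-coding genes, 20 of them predicted, led by D5Ertd577e and AA792892, and the median unique share was 3.5%. On chromosome 2 (chr2:175040001-176560000), 37 of 38 windows were never positive over 25 predicted genes such as Gm14306 and Gm14308, with a median of 0% unique 50-mers and 12.5 copies. The run at chr12:23280001-24440000 (29 windows, 14 never positive) holds 1 coding gene, Gm17391. The run at chr14:3160001-4080000 (23 windows, 14 never positive) holds 19, all predicted.

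On chromosome 7, vomeronasal receptor genes lay in most of the other long runs. These encode pheromone receptors of the vomeronasal organ, in a type 1 and a type 2 family. Runs of 36 and 35 windows (chr7:20680001-22120000 and chr7:22160001-23560000), parted by a single window positive in 34 libraries, held Vmn1r112, Vmn1r114 and Vmn1r139 among 40 and 33 coding genes. Of these coding genes, 12 and 19 were predicted. The first run had 17 never positive windows and the second 27, and the highest count in either was 20. The type 2 genes Vmn2r35, Vmn2r36 and Vmn2r37 lay in a run of 31 windows (chr7:7720001-8960000), 21 of them never positive. That run holds 5 coding genes, 2 of them predicted, and 27 pseudogenes. The run of 30 windows at chr7:32800001-34000000, without N, held predicted genes such as Gm5326, 13 never positive windows and a median of 5 libraries.

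The longest stretch of never positive windows without gaps lay on chromosome 4. At chr4:42200001-42840000, 16 windows in a row were positive in 0 libraries, with unique shares of 0 to 0.25%. They hold 24 protein-coding genes, 19 of them predicted. The others include Ccl21a and Ccl19, chemokines that guide T cells and dendritic cells to lymphoid tissue, Ccl27b, and the interleukin 11 receptor gene Il11ra2. In the whole run around them (chr4:42120001-42840000), 99.97% of the 50-mers with 2 to 100 copies had a copy within 2 Mb. A stretch of 11 windows at chr7:33440001-33880000 holds Gm5058. A stretch of 9 at chr14:26720001-27080000 holds the homeobox genes Duxbl and Cphx, with Plac9. Of the other 5 stretches, each of 6 windows, 3 hold type 1 vomeronasal receptors (Vmn1r93, Vmn1r143 and Vmn1r163), 1 holds predicted genes of chromosome 14 (Gm3002), and 1 holds Skint3 and Skint4. The 7 stretches other than the Skint stretch had median unique shares of 0 to 0.63%, and the Skint stretch had 91.6%.

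Counted over the annotation, 1096 of 34653 autosomal genes of any type (3.16%) and 542 of 21418 protein-coding genes (2.53%) overlapped a member window. These shares are the background for the families that follow, which were listed by symbol, nearly all as families known to be duplicated, and are described without a test. The pluripotency regulators on the list are no such family. Among families of 5 genes or more, the largest share was that of the amylases, starch-digesting enzymes, with 4 of 8 genes. All 4 are pancreatic Amy2a copies in 4 windows of chromosome 3 (chr3:113080001-113240000) that were positive in 0, 0, 0 and 8 libraries. The last 2 of these windows hold 48.4% and 76.6% N. The Skint genes followed with 5 of 11, and the major urinary proteins, which carry pheromones in urine, with 7 of 21. The urinary protein run (chr4:60600001-61160000, 14 windows) was positive in a median of 7 libraries.

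Several further families were of receptors and host defence genes. Of the paired Ig-like receptors of immune cells, 2 of 6 overlapped members (Pira2 and Pira5), and of the Ly49 receptors of natural killer cells, 4 of 14. The Klra windows were detected more often than most, in 19 to 24 libraries. Of 73 defensins, antimicrobial peptides, 16 lay in members on chromosome 8, and of 211 type 1 vomeronasal receptors, 45, all on chromosome 7. T cell receptor segments counted 19 of 106 (none of the 19 typed as protein-coding), type 2 vomeronasal receptors 17 of 118, and the epidermal Lce and Sprr genes 4 of 34. Predicted Gm genes, the largest group, counted 606 of 7869 (7.70%).

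Membership of a large or clustered family did not by itself go with low detection. Olfactory receptors, the largest receptor family, had 2 of 1243 genes in members (0.161%). No gene overlapped a member in 25 of the 43 families of 5 genes or more. These were the formyl peptide receptors, secretoglobins, Zscan4, Obox, Pramel and oogenesin, kallikrein, UDP glucuronosyltransferase and sulfotransferase genes, and those of the pregnancy-specific glycoproteins, prolactins, Naip proteins, eosinophil-associated ribonucleases, Ifi200 proteins, guanylate-binding proteins and Schlafens. The MHC class I, immunoglobulin heavy chain and immunoglobulin kappa, trypsin, cathepsin, histone, trace amine receptor, keratin-associated, TD and POZ domain genes and the pluripotency regulators completed the list. Several of these families are small, such as Obox with 5 genes and Ifi200 with 8, where 0 says little beside a background of 3.16%. The larger ones included immunoglobulin kappa with 105 genes and histones with 70. Families were matched by symbol, so variable segments that carry Gm names, as some on chromosome 14 do, are not counted in the immunoglobulin families. The 0 for the 37 immunoglobulin heavy chain genes may therefore not hold for the whole locus.

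Gene types differed in their share, an observation made after the counts were seen. The variable segments that the annotation types as IG_V_gene had 48 of 355 genes in members (13.5%), against 3.16% of all genes. Of these, 21 and 17 lay in 2 runs of 5 windows on chromosome 14 (chr14:53440001-53640000 and chr14:53760001-53960000), each positive in a median of 1 library. Despite the name of the type, they include T cell receptor segments of chromosome 14, such as Trav3-4 and Trav7n-4. Those are also among the 19 of 106 segments counted by symbol above. Entries with Gm names, such as Gm10888, are counted among the predicted genes as well. These counts therefore overlap, and the 19 may leave out segments with Gm names. Small nucleolar RNA (snoRNA) genes overlapped members in 160 of 1458 cases (11.0%), ribosomal RNA genes in 23 of 307 (7.49%), miRNA genes in 12 of 1468 (0.817%) and small nuclear RNA genes in 12 of 1331 (0.902%). Of the snoRNA genes, 135 were copies of SNORD115 in a run of 7 windows (chr7:66600001-66880000) positive in 13, 5, 2, 16, 6, 1 and 12 libraries, and 15 were copies of SNORD116 in a run of 2 windows nearby (chr7:66960001-67040000), of which the first is all N and the second was positive in 18. Both snoRNA arrays belong to the imprinted region whose human counterpart is lost in Prader-Willi syndrome. In the SNORD115 run, 97.4% of the 50-mers with 2 to 100 copies had a copy in the same run and 97.4% had all their copies in member windows. All 23 ribosomal RNA genes in members lay in 1 window of chromosome 8 (chr8:126080001-126120000), an array of short 5S-type entries positive in 1 library. Pseudogenes reached 265 of 4055 (6.54%).

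The clearest exception to multi-copy sequence was the Skint cluster of chromosome 4. Of the 44 members with under 10% N and 80% unique 50-mers or more, 10 were never positive, and 8 of these 10 lay in the cluster. Chromosome 4 held 19 of the 44, and the rest lay on other chromosomes. The naming rule takes the longest runs first, so all 10 windows it selects come from this cluster. The windows of the first run (chr4:111720001-112280000, 14 windows) were positive, in order, in 17, 0, 0, 0, 0, 0, 0, 1, 0, 3, 3, 0, 0 and 18 libraries. The 25 windows before it were positive in 38 to 63 libraries with a median of 52. The unique share had a median of 82% in the run and 91.8% before it, and 10.6% of the 50-mers in the run had 2 to 100 copies.

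Within the cluster, low windows lay in blocks between windows above the limit. Skint3 lay over 3 windows of 0 libraries each, and Skint4 over windows of 17, 0, 0 and 0. Skint9 lay over windows of 0 and 3. Skint7, Skint8 and Skint1, directly before them, were in windows of 48 to 55 libraries, and Skint2 and Skint10, directly after, in windows of 33 to 52. Further on, Skint6 was in 13 windows of 1 to 33 libraries, and Skint5 in 14 windows of 5 to 54. Within Skint6, a run of 4 windows (chr4:112480001-112640000) was positive in 7, 13, 18 and 12 libraries. The run of 9 windows after it (chr4:112680001-113040000) was positive in 1 to 15 libraries at a median unique share of 83%.

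Calls in the first run were few but not confined to a single library. Its 42 calls came from 37 libraries, and they made up 1.20% of all possible calls there, against 20.5% in the 25 windows before it and 17.8% in 25 windows further on (chr4:113280001-114280000), which take in part of Skint5, all of Skint11 and 2 members. The 10 windows between the first run and the run of 9, of which 4 are members, were at 11.6%. Whether the cells differ from the reference strain at this locus was not tested.

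**Figure D4:**
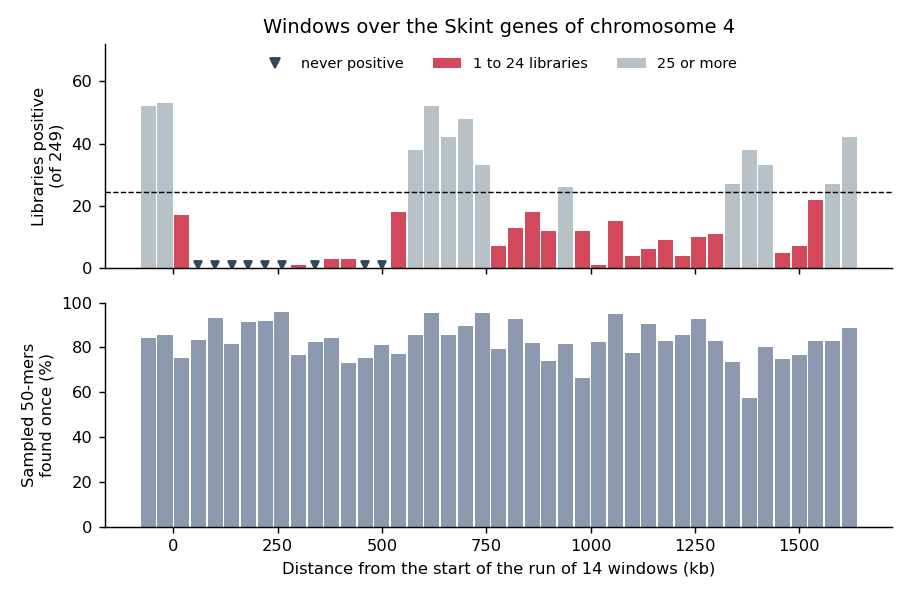
Number of libraries positive (top) and percent of sampled 50-mers found once (bottom) in windows of 40 kb across the Skint genes, by distance in kb from the start of the run of 14 windows. Triangles mark windows at 0 libraries and the dashed line lies between 24 and 25. Detection drops to between 0 and 18 libraries in the run, while the unique share remains at 73% or above in it.

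Outside this cluster, few unique windows were never positive, and those named here were chosen after their values were seen. Single windows at chr1:111640001-111680000 and chr8:15440001-15480000 were at 0 libraries with 87.0% and 80.8% unique 50-mers, between neighbours at 37 and 27 and at 35 and 49 libraries. A run of 6 windows at chr17:40080001-40320000 was positive in 1, 0, 1, 0, 2 and 2 libraries, between neighbours at 29 and 38, with a median unique share of 74.6%. No coding gene is annotated in these 3 regions. On chromosome 11 (chr11:71000001-71120000), a run of 3 windows was positive in 11, 2 and 14 libraries, between neighbours at 49 and 46, and its first and second windows overlap Nlrp1b, an inflammasome sensor. Other members with at least 80% unique 50-mers ranged from windows well below the limit, such as chr7:55120001-55160000 at 4 libraries, chr7:54920001-54960000 at 6 and chr8:76520001-76560000 at 8, to windows at it, such as 4 adjacent windows of chromosome 14 (chr14:69280001-69440000) that were each positive in 24.

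Low detection of these windows carried over to libraries that had not chosen them. For each experiment, windows were chosen again in the other 10 at the same share of libraries, which gave 1313 to 1409 windows, and were then counted in the libraries left out. Chosen windows were positive in 1.71% to 3.79% on average, and the other autosomal windows in 15.5% to 25.1%. The difference was below 0 in every library. It passed the test in 11 of 11 experiments (sign-flip permutation test across libraries, two-sided, largest Benjamini-Hochberg adjusted p = 0.0021). In the full collection, for example, chosen windows were positive in 1.75 ± 1.04% and others in 17.6 ± 7.5% (SD, n = 54 libraries).

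Windows at 0 elsewhere were seldom called in the experiment left out. Of the 754 to 765 windows that were at 0 in the other experiments, 2 to 13 were positive in any library of the experiment left out. Windows that are all N can add nothing to this count, and they lower the rates of the chosen windows given above. With windows under 10% N only, chosen windows were positive in 2.50% to 5.47% and the others in 15.5% to 25.1%. Under this filter, 2 to 12 of the 285 to 295 windows at 0 elsewhere were positive. The mean difference over all libraries was then -16.8 percentage points, against -17.9 with all windows, and was again below 0 in every library. With windows chosen at the share of 39 libraries, it was -6.09 points.

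**Figure D5:**
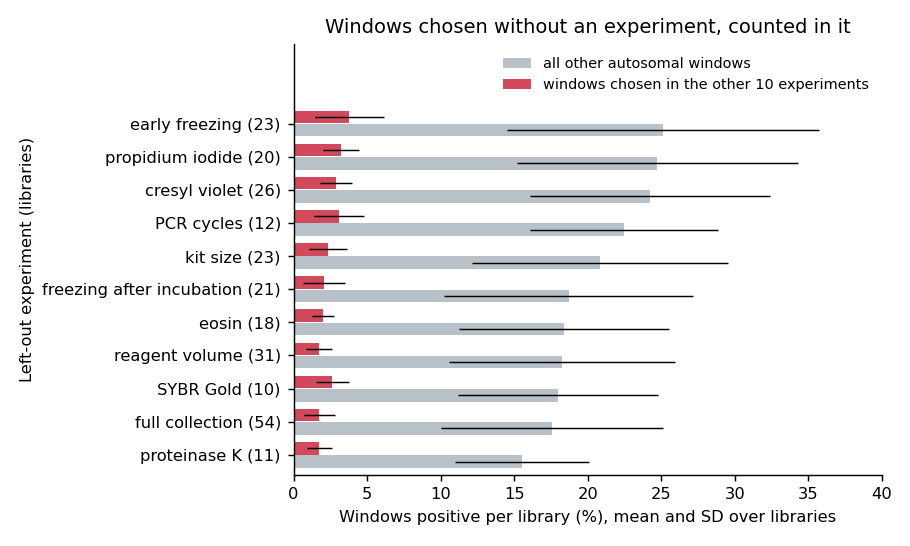
Percent of windows positive per library (horizontal, mean and SD over libraries) in each left-out experiment (vertical, number of libraries in parentheses), for windows chosen in the other 10 experiments and for all other autosomal windows. The chosen windows lie between 1.71% and 3.79% and the others between 15.5% and 25.1%.

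How often the windows of 1 to 24 libraries were called varied between libraries. They received 7146 calls, and no library had none. A library was positive in 0.328% to 16.9% of the 609 windows, with a median of 4.11% and a mean of 4.71 ± 2.85% (SD over all libraries), against 20.2 ± 8.5% of the windows of 25 or more libraries. Divided by the latter, the relative rate was 0.229 ± 0.090, between 0.0365 and 0.528. That it lies below 1 in every library follows from how the windows were chosen. The 25 libraries with most such calls held 23.0% of them.

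Experiments differed in these calls beyond the spread between libraries, in windows chosen by the sum of the same calls over all libraries. The choice used that sum and not how it splits over experiments. Unlike for the left-out experiments, windows were not chosen anew for these tests. The mean percent positive was lowest at 3.52 ± 1.89% (SD, 31 libraries) for reagent volume and highest at 7.15 ± 4.58% (23 libraries) for early freezing (permutation test of F over 11 experiments, F = 3.72, p = 0.0002, 13.5% of the variance between experiments). The windows of 25 or more libraries differed likewise (permutation test, F = 3.56, p = 0.00022). The relative rate, which sets the first against the second, lay between 0.194 ± 0.071 for reagent volume and 0.295 ± 0.089 (SD, 10 libraries) for SYBR Gold, whose staining is uncertain (permutation test, F = 2.29, p = 0.0144). With a limit of 12 libraries in place of 24, this last difference did not pass the test (permutation test, p = 0.101). Experiment, plate and protocol cannot be told apart across experiments.

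Between protocol arms within an experiment, 11 pairs were compared for both measures, and 1 of the 22 contrasts passed after adjustment. The windows had been chosen by calls summed over all libraries, both arms included, and with a limit of 12 libraries 0 contrasts passed. Libraries frozen early were positive in 9.96 ± 4.40% of the windows of 1 to 24 libraries (SD, n = 12, range 2.79 to 16.9%) and those frozen late in 4.09 ± 2.25% (n = 11, range 0.657 to 7.39%). The groups overlapped, and the difference of 5.87 percentage points had an adjusted p of 0.0172 (two-sided permutation test, Benjamini-Hochberg over 22). The same libraries differed in the windows of 25 or more, with 31.3 ± 9.0% and 18.5 ± 8.0% (permutation test, unadjusted p = 0.00282). The relative rates were 0.314 ± 0.103 and 0.222 ± 0.104 (adjusted p = 0.170, permutation test). With a limit of 12 libraries, the difference between early and late freezing was 2.67 points, and its adjusted p was 0.066 (permutation test).

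In the PCR cycle test no contrast passed the adjustment. The windows of 1 to 24 libraries were here, too, chosen with the tested libraries included. Libraries of 23 cycles were positive in 8.24 ± 2.35% of the windows (SD, n = 5) and those of 20 cycles in 2.63 ± 1.33% (n = 4), an exact permutation p of 0.0159 and an adjusted p of 0.116. The smallest p this design allows is 0.00794. Their relative rates were 0.326 ± 0.052 and 0.158 ± 0.039 (exact permutation test, adjusted p = 0.116), and the values of both groups did not overlap in either measure. In the other windows the same libraries were at 24.9 ± 3.5% and 15.9 ± 4.8%. Of the 22 contrasts, 6 had an unadjusted p below 0.05.

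Calls in the windows of 1 to 24 libraries had positive neighbours less often than calls elsewhere. In the 244 libraries with at least 5 such calls, 53.6 ± 17.7% of them (SD over libraries) had a positive adjacent window, against 82.3 ± 10.9% of the calls in windows of 25 or more libraries. The share was lower in 241 of 244 libraries, by 28.7 ± 0.8 percentage points (SE). Members lie next to members, which the choice makes rarely positive, so the difference is given as a description. Counting as neighbours only windows that are no members, the share was 42.9%, since a call inside a long run then has none.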

How the data were processed

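Per the labels and the methods of the study, the authors aligned reads to mm9 with Bowtie2 (version 2.1 in the submitters' processing notes), removed duplicates with Samtools and called windows of 40 kb positive with GAMtools by a read threshold of 4. Deposited were these calls, as 0 or 1, in libraries that passed the authors' quality control, so the depth behind a call is unknown and no interval rests on it. Every column was matched to a sample by its library name, and groups came from the titles, also where the protocol text differs.

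Windows of chromosomes 1 to 19 from 3 Mb on were classed by the number of positive libraries. N, GC and 50-mers sampled every 100 bases were read from NCBIM37 (mm9, 19 autosomes of equal length in the table), with exact copies counted on both strands, and genes were taken from GENCODE vM1. Windows with 10% N or more were set apart. Analysis used Python 3.11.15, numpy 2.4.6, pandas 2.3.3 and numba 0.67.0, and the counting of copies and the permutation tests were tested on simulated data.

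Windows were chosen anew without each of the 11 experiments and tested in it. Tests were permutation tests over libraries with 100000 resamples (exact under 10 libraries in an arm), two-sided, except for F. Benjamini-Hochberg adjustment ran over 11 experiments and over 22 contrasts, with a threshold of 0.05. A family counts as overlapping through any base in a member window.

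The text names the 12 longest runs, the 8 longest never positive stretches under 10% N, up to 10 members with at least 80% unique 50-mers, and the 10 families of 5 genes or more with the largest share beside those at 0. Members, lists and families were chosen with earlier results of these data known. Alternatives changed the limit (12 or 39 libraries), the N filter, the stretch length (36 or 75 bases), the way runs and genes are counted, the libraries used, and means against medians or ranks. Mapping quality and the genome sequence of the cells themselves were not analysed here.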

Additional observations from a re-analysis of the deposited data

Results flagged for a closer look

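Chance sets apart about 1 in 20 groups by the measure used here, the gap from the highest or lowest library to the nearest other one as a share of the range, and 18 sets of values (groups of 4 to 10 libraries, 2 measures) were looked at. In the proteinase K titration, replicate 5 of the 1 ul group was positive in 9.03% of the windows of 1 to 24 libraries, against 2.13% to 3.94% in the other 4 libraries of that group, and it was positive in 21.3% of the other autosomal windows. Replicate 3 of the 2 ul group was positive in 1.15%, against 3.45% to 4.76% in the other 5 libraries, and in 9.34% of the other autosomal windows. Neither library stood apart by this measure in its relative rate, which was 0.424 and 0.123.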

How the results depend on the processing

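Of 242 alternative values over 49 results, 211 were classed as the same, by rules that depend on the kind of result. Counts, percents and medians had to stay near the main value. Tested differences had to keep their direction and their side of the threshold. The 211 include the number of contrasts that passed, which stayed at 1 in 23 reruns that each left out 1 library. The counts of windows move with the definition. Never positive windows numbered 283 with windows under 10% N only and 2177 with no minimum start. Windows of the rarely detected class numbered 328 with a limit of 12 libraries and 7293 with a limit of 39, and both classes together numbered 8045 with the limit of 39, 829 with windows under 10% N and 2786 with no minimum start. Runs numbered 124 for never positive windows alone, and with windows under 10% N the longest run was 39 windows and 33.5% of windows lay in runs of 10 or more. With the limit of 12, F of the relative rate across experiments was 1.63 (permutation test, p = 0.101), 0 of 22 contrasts passed the adjustment (3 had an unadjusted p below 0.05 in the permutation tests), and the difference of early and late freezing was 2.67 points (permutation test, adjusted p = 0.066). The cause of these shifts in the tests was not tested.

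Differences that no test called changed sign. With medians, 2 ul minus 1 ul of proteinase K was 0.49 points and 0.0579 in relative rate. Libraries frozen after incubation minus unfrozen ones were at 0.246 points, and 25 minus 23 cycles at 0.657 points. With the limit of 12, 2 ul minus 1 ul was 0.00688 in relative rate, and cresyl violet minus unstained 0.0610 points and 0.0104 in relative rate. With windows under 10% N, 25 minus 23 cycles was 0.146 points. Leaving out each library of the proteinase K and PCR cycle tests in turn, 2 ul minus 1 ul ran from -1.29 to 0.438 points and from -0.0415 to 0.0244 in relative rate, and 25 minus 23 cycles from -2.17 to 2.18 points and from -0.0976 to 0.0172. Early against late freezing, the contrast that passed, was not rerun without single libraries, since its groups hold over 10. The sign turned without replicate 5 of 1 ul (both measures) or replicate 3 of 2 ul (relative rate), and without replicate 1 of 25 cycles (both measures) or replicates 1 or 4 of 23 cycles (0.479 points each). Tests of left-out experiments passed in 11 of 11 under each of the 4 alternatives run, with mean differences from -20.1 points (never positive windows only) to -6.09 (share of 39 libraries). No paired analysis was possible because the libraries carry no replicate numbers that pair them across groups. The deposited calls give no depth, so a window that holds few reads cannot be separated from an absent one.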
